A study of Rattus norvegicus with 9 samples.

Results

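The antioxidant enzymes and the glutathione system of the rat tibialis anterior muscle (TIB) are represented by 48 genes. They were listed by name and function, with earlier results of these data known, and span the removal of superoxide and peroxide, the thioredoxin and glutaredoxin systems, the synthesis of glutathione, the glutathione transferases and their regulator NRF2. Each gene was taken from the probe sets that the platform's annotation gives exactly 1 symbol, and the brightest one over the 9 arrays stood for a gene with several. A value was obtained for 47 of the 48 genes, of the 14503 genes with such a probe set, and Mgst3 was not analysed here. The RNA came from male Sprague Dawley rats that were 10 weeks old when purchased, with 3 rats killed in the fed state (Fed), 3 in phase 2 of a fast with water available (P2) and 3 in phase 3 (P3), and 1 Affymetrix Rat Gene 1.0 ST array per rat. A rat was placed in a phase by weighing it each day: P2 is a long stretch of small daily losses on a fuel of mostly fat, and P3, which the rats had entered on the day before they were killed, brings larger losses as more protein is burned. All rats are of 1 sex and strain, whole muscle was ground, and the fasted groups differ in both phase and length of fast.

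Superoxide dismutases turn superoxide into hydrogen peroxide, which catalase, the glutathione peroxidases and the peroxiredoxins then remove. Peroxidases take their electrons from glutathione or thioredoxin, and glutathione reductase and the thioredoxin reductases restore these with NADPH. Glutathione is made from cysteine in 2 steps, the first catalysed by the ligase of Gclc and Gclm, and glutathione transferases attach it to electrophiles. The transcription factor NRF2 (gene Nfe2l2) turns on many of these genes through the antioxidant response element, and KEAP1 holds it in the cytosol and directs its breakdown. Muscle produces superoxide in its mitochondria and at its NADPH oxidases.

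Values are log2 intensities, so that a log2 fold change is a difference between the mean log2 intensities of groups. It is given with its standard error (SE) after the ± sign, and a gene is called changed where the adjusted p of limma, Benjamini-Hochberg over all 29215 probe sets of a comparison, is under 0.05. Skeletal muscle fibre markers were bright on every array, with a mean level of their 14 measured genes of 13.24 to 13.28 in Fed, 13.13 to 13.16 in P2 and 12.86 to 12.90 in P3. Of these markers 1 was lower in P2 and 4 were lower in P3 than in Fed. Macrophage markers (12) and endothelial markers (9) had no call in P2, and in P3 1 macrophage marker was higher and 1 lower, and 1 endothelial marker was higher. Array medians lay between 5.80 and 5.90. The labels name no batch.

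Gclc, Gclm, Cth and Gsr, of glutathione synthesis and recycling, rose in both phases of the fast, as did Nfe2l2, Keap1 and Nqo1, whereas Sod2, Gpx1 and Glrx fell in both. In P3, 4 of 6 peroxiredoxins were lower than in Fed, but the calls of Prdx4 and Prdx5 were lost without some arrays. In P2, 18 of the 47 genes were higher than in Fed and 6 lower, which is 51.1% of them, where 9.28% of all probe sets (5.13% higher and 4.15% lower) and 12.6% of all genes were called. In P3, 18 were higher than in Fed and 13 lower, or 66.0%, against 29.2% of all probe sets (15.8% higher and 13.4% lower) and 35.3% of genes. Between the phases, 12 genes were higher in P3 than in P2 and 12 lower, or 51.1%, against 16.0% of probe sets (8.50% higher and 7.52% lower) and 21.8% of genes. Their median log2 fold change was 0.25 in P2 versus Fed, 0.17 in P3 versus Fed and -0.11 in P3 versus P2, and that of all probe sets 0.01, 0.00 and -0.01. Changes of at least 1 on the log2 scale were called for 10 genes in P2 and for 18 in P3, each against Fed. The share of all probe sets with a called change of that size was not counted. Both comparisons use the same fed rats. The heat map shows that rats of a group were alike: the median SD over these genes was 0.10 in Fed, 0.13 in P2 and 0.12 in P3, beside 0.10, 0.12 and 0.11 over all genes, and the highest was 0.70, for Gstm1 in P2.

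**Figure D1:**
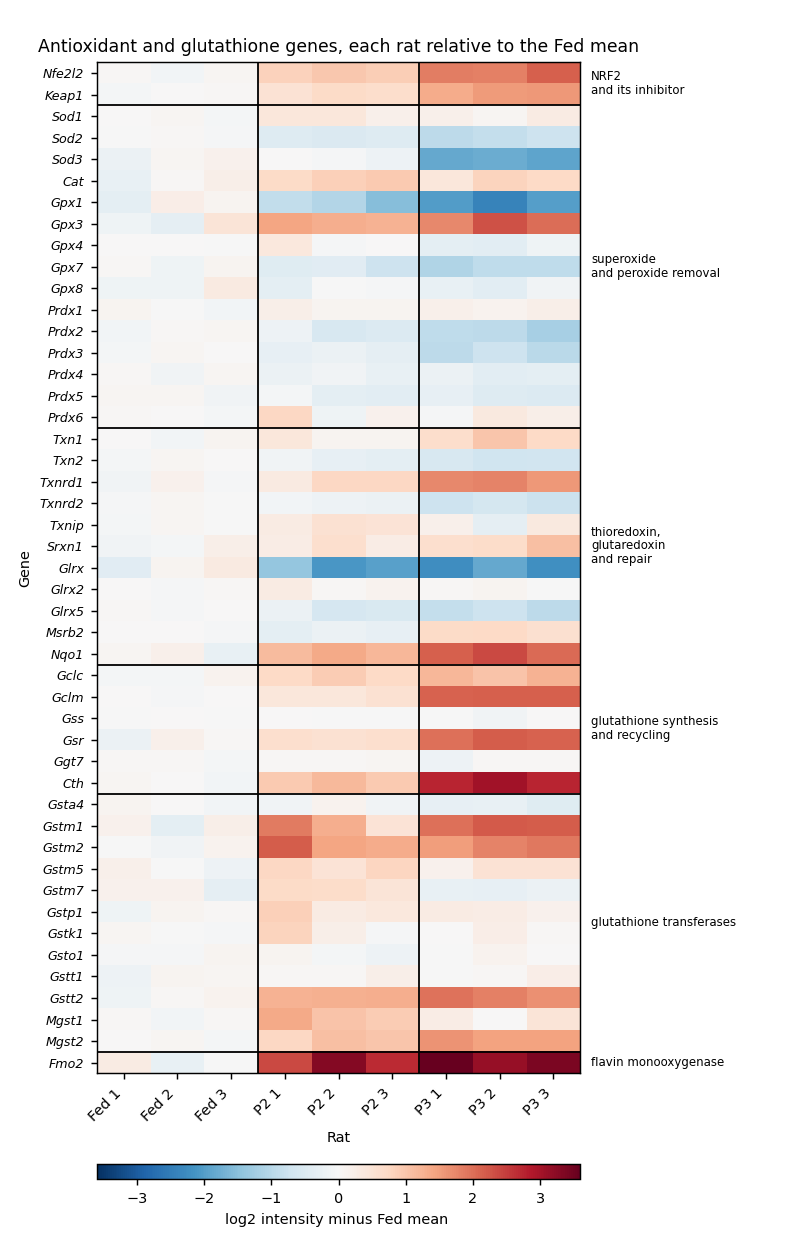
Log2 intensity of each of the 47 genes (rows, grouped by role) in each of the 9 rats (columns, Fed, P2 and P3), minus the gene's Fed mean. Red is above and blue below the Fed mean. Cth and Fmo2 are the reddest rows in P3, whereas Gpx1 and Glrx are the bluest.

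Nfe2l2, which encodes NRF2, rose in each phase. Its log2 intensity was 8.65, 8.48 and 8.65 in fed rats, 9.43, 9.58 and 9.49 in P2 rats and 10.44, 10.40 and 10.75 in P3 rats. No value of one group reached into another. The log2 fold change was 0.90 ± 0.10, adjusted p = 0.0012, in P2 versus Fed, and 1.93 ± 0.10, adjusted p = 2.31e-06, in P3 versus Fed, and P3 exceeded P2 by 1.03 ± 0.10, adjusted p = 0.00022. Keap1, the inhibitor, rose beside it. Its values were 8.67, 8.78 and 8.81 in fed rats, 9.27, 9.43 and 9.39 in P2 rats and 10.10, 10.29 and 10.32 in P3 rats, again with no overlap. Keap1 was higher than in Fed by 0.61 ± 0.08, adjusted p = 0.00274, in P2 and by 1.48 ± 0.08, adjusted p = 2.87e-06, in P3, and higher in P3 than in P2 by 0.87 ± 0.08, adjusted p = 0.000164. Nqo1, the quinone reductase that is among the best known NRF2 targets, had 6.42, 6.54 and 6.08 in fed rats, 7.48, 7.71 and 7.54 in P2 rats and 8.52, 8.73 and 8.39 in P3 rats. Each P3 rat lay above each P2 rat, and each P2 rat above each fed rat. The log2 fold changes of Nqo1 were 1.23 ± 0.13, adjusted p = 0.000949, in P2 versus Fed, 2.19 ± 0.13, adjusted p = 4.57e-06, in P3 versus Fed and 0.97 ± 0.13, adjusted p = 0.00123, in P3 versus P2.

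To show how the element through which NRF2 acts is placed, the RefSeq promoter windows of these genes (rat build GRCr8, from 250 bases before to 50 after the gene start, read on the strand of the gene) were searched for its core, TGACNNNGC, on both strands. Of the 47 genes, 39 had a window, and 11 of them (28.2%) held the core, as did 13.1% of all 27457 genes with a window. A match is a run of letters and not a binding site. The core stood in 4 of 15 genes that were higher in P3 than in Fed (26.7%), in 3 of 12 that were lower (25.0%) and in 4 of 12 with no call (33.3%). Bases outside the window were not searched, and Nqo1 had no core within its window. The forkhead element TGTTTAC, searched in the same way, was in 2 of the 39 genes, and in 4.13% of all genes. A pair of genes that rose and a pair with no call in P2 or P3 versus Fed are printed, with the core in capitals. Gclm (chr2:213031885-213032184, plus strand) has it at -172 from the gene start, Txnrd1 (chr7:22755855-22756154, minus strand, 1 of its 2 windows) at -78, Prdx1 (chr5:135383656-135383955, plus strand) at -135 and Gstp1 (chr1:210769656-210769955, minus strand) at -61.
Gclm: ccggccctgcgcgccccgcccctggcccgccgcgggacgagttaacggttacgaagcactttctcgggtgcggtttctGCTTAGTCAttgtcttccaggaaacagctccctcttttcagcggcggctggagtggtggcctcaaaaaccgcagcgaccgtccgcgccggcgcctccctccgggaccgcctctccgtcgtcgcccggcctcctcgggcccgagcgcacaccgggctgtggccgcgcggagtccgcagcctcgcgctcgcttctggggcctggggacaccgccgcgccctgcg
Txnrd1: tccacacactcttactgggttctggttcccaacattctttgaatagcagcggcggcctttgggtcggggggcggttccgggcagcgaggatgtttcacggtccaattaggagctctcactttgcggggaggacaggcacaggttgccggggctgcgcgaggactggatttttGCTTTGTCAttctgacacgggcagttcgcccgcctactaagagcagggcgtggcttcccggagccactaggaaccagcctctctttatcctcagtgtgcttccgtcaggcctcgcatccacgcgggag
Prdx1: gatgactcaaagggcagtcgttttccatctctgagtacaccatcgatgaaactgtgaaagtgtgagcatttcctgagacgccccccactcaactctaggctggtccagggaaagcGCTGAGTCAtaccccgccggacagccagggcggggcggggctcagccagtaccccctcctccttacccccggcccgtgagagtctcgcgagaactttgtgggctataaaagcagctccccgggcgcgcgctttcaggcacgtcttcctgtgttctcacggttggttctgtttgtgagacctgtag
Gstp1: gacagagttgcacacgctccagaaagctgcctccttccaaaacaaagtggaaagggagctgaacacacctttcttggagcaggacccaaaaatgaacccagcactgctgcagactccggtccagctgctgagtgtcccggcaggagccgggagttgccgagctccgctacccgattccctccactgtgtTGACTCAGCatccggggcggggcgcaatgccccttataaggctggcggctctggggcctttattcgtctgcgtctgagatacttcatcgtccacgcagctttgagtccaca

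Of the 6 genes of glutathione synthesis and recycling, 4 rose in P2, and the same 4 rose further in P3. Gss and Ggt7 were called in no comparison. Of all probe sets, 5.13% were higher in P2 and 15.8% in P3, each against Fed, and 8.5% in P3 versus P2. Gclm, the modifier subunit of glutamate-cysteine ligase, which sets the rate of glutathione synthesis, had 7.66, 7.62 and 7.67 in fed rats, 8.06, 8.05 and 8.19 in P2 rats and 9.77, 9.81 and 9.80 in P3 rats. The 3 P3 rats were nearly alike and stood far above the rest. Gclm gave log2 fold changes of 0.45 ± 0.07, adjusted p = 0.00375, in P2 versus Fed, 2.14 ± 0.07, adjusted p = 1.78e-07, in P3 versus Fed and 1.69 ± 0.07, adjusted p = 2.40e-06, in P3 versus P2, so that most of the rise came in P3. Gclc, the catalytic subunit of the same ligase, had 7.66, 7.68 and 7.88 in fed rats, 8.46, 8.65 and 8.46 in P2 rats and 8.94, 8.75 and 8.99 in P3 rats. Gclc stood above Fed by 0.78 ± 0.10, adjusted p = 0.00176, in P2 and by 1.16 ± 0.10, adjusted p = 2.65e-05, in P3, and most of its rise was there in P2. The step of Gclc in P3 versus P2 was 0.37 ± 0.10, adjusted p = 0.0304. It lost the call when P2 1, P2 3, P3 1 or P3 3 was left out (adjusted p of 0.0824 to 0.111).

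Gsr, glutathione reductase, had 8.16, 8.57 and 8.42 in fed rats, 8.99, 8.93 and 8.99 in P2 rats and 10.37, 10.56 and 10.52 in P3 rats. It stood higher by 0.59 ± 0.10, adjusted p = 0.00934, in P2 and by 2.10 ± 0.10, adjusted p = 1.49e-06, in P3 than in Fed, and by 1.51 ± 0.10, adjusted p = 3.09e-05, in P3 than in P2. Cth, the lyase that releases cysteine from cystathionine, had 5.309, 5.266 and 5.157 in fed rats, 6.193, 6.425 and 6.189 in P2 rats and 7.999, 8.281 and 7.999 in P3 rats. This was the largest rise of the 6 genes, but the fed values of Cth lay below every array median. The log2 fold change of Cth was 1.02 ± 0.10, adjusted p = 0.000651, in P2 versus Fed, 2.85 ± 0.10, adjusted p = 3.73e-07, in P3 versus Fed and 1.82 ± 0.10, adjusted p = 1.12e-05, in P3 versus P2. Gss, the synthase of the second step, changed by 0.00 ± 0.06 in P2 and -0.04 ± 0.06 in P3. Ggt7, a member of the gamma-glutamyltransferase family, changed by 0.04 ± 0.08 and -0.04 ± 0.08.

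Among the 12 measured glutathione transferases, 7 were higher in P2 than in Fed and none lower, and in P3, 4 were higher and 1 lower, with medians of 0.64 and 0.25. The shares of all probe sets that were higher are 5.13% in P2 and 15.8% in P3. The 4 mu class genes among the 12, Gstm1, Gstm2, Gstm5 and Gstm7, rose in P2. Gstm3 (0.05 ± 0.08, adjusted p = 0.797) and Gstm4 (-0.01 ± 0.36, adjusted p = 0.994), mu class genes outside the 48, were not called. The mean log2 intensity of Gstm3 was 4.24, below every array median, where a change can hardly show. Gstm4 spread widely, with 9.20, 8.05 and 8.03 in P2 rats. Gstm2 had 8.50, 8.41 and 8.66 in fed rats, 10.70, 9.94 and 9.86 in P2 rats and 10.03, 10.31 and 10.42 in P3 rats. P2 and P3 rats overlapped, and both lay above the fed rats, with log2 fold changes of 1.64 ± 0.21, adjusted p = 0.00193, in P2 and 1.73 ± 0.21, adjusted p = 0.000243, in P3. Gstm1 had 7.74, 7.24 and 7.80 in fed rats, 9.46, 8.90 and 8.07 in P2 rats and 9.57, 9.80 and 9.78 in P3 rats. The P2 rats spread widely, and the lowest of them was near the fed rats. Its log2 fold change was 1.22 ± 0.31, adjusted p = 0.0396, in P2 and 2.13 ± 0.31, adjusted p = 0.000691, in P3. The P2 call of Gstm1 was lost when any 1 rat other than P2 3 was left out, with an adjusted p of up to 0.143. In P3 versus P2 it changed by 0.91 ± 0.31, adjusted p = 0.086, which was called without P2 1 (adjusted p = 0.0134). The mu class genes are close in sequence, so a probe set of one may also read the others, and their values are not independent.

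Gstt2, a theta class transferase, had 6.94, 7.16 and 7.22 in fed rats, 8.37, 8.38 and 8.42 in P2 rats and 9.06, 8.92 and 8.74 in P3 rats. It was higher by 1.28 ± 0.10, adjusted p = 0.000219, in P2, by 1.80 ± 0.10, adjusted p = 2.78e-06, in P3 and by 0.52 ± 0.10, adjusted p = 0.0074, in P3 than in P2, with no overlap between any groups. Mgst2, a membrane-bound transferase of the endoplasmic reticulum that also makes leukotriene C4, had 6.41, 6.46 and 6.33 in fed rats, 7.15, 7.48 and 7.39 in P2 rats and 8.01, 7.84 and 7.86 in P3 rats. Mgst2 was higher by 0.94 ± 0.10, adjusted p = 0.000685, in P2, by 1.5 ± 0.10, adjusted p = 5.68e-06, in P3 and by 0.56 ± 0.10, adjusted p = 0.00368, in P3 than in P2. Gsta4, an alpha class enzyme that conjugates products of lipid peroxidation, was lower in P3 (-0.34 ± 0.10, adjusted p = 0.028). That call was lost without Fed 1, Fed 2, P3 1 or P3 3 (adjusted p of 0.0536 to 0.0981), and a dimmer probe set of Gsta4 gave -0.13 ± 0.14 (adjusted p = 0.534). Gstp1, Gstk1, Gsto1 and Gstt1 were called in no comparison, although Gstp1 was higher in P2 than in Fed without P2 2 (adjusted p = 0.0439).

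Another 3 transferases were higher in P2 and had no call in P3 versus Fed. Mgst1, a membrane-bound transferase of the endoplasmic reticulum and the outer mitochondrial membrane, had 6.568, 6.425 and 6.571 in fed rats, 7.887, 7.549 and 7.430 in P2 rats and 6.791, 6.547 and 6.996 in P3 rats. Each P2 rat lay above all fed and P3 rats, which overlapped. Mgst1 gave log2 fold changes of 1.1 ± 0.14, adjusted p = 0.00205, in P2 versus Fed, 0.26 ± 0.14, adjusted p = 0.229, in P3 versus Fed and -0.84 ± 0.14, adjusted p = 0.00349, in P3 versus P2. Gstm7 was higher in P2 (0.60 ± 0.13, adjusted p = 0.0228), and P3 lay below P2 (-0.87 ± 0.13, adjusted p = 0.00192). The P2 call of Gstm7 was lost without P2 1 or P2 2 (adjusted p of 0.0511 and 0.0684), and without Fed 3 the gene was called lower in P3 than in Fed (adjusted p = 0.00976). Gstm5 was higher in P2 (0.67 ± 0.13, adjusted p = 0.0155), a call that was lost without Fed 2, Fed 3 or P2 3 (adjusted p of 0.0568 to 0.0626), and its P3 value was 0.41 ± 0.13, adjusted p = 0.05004. This lay just over the threshold, and it was called in P3 without Fed 1, P2 2 or P3 1 (adjusted p of 0.0179 to 0.0475).

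Of 11 adipocyte markers, 4 were higher in P2 than in Fed (Adipoq, Cidec, Fabp4 and Cd36) and the other 7 had no call. Adipoq, Cidec and Fabp4 were lower in P3 than in P2, and Adipoq changed by -1.43 ± 0.32 there after a P2 value against Fed of 1.76 ± 0.32. Cd36 went on upwards, with 0.56 ± 0.14 in P3 versus P2, and Car3, with no call in P2 (-0.20 ± 0.09), was lower in P3 than in P2 (-1.03 ± 0.09). The mean level of the list was 7.60 to 7.68 in Fed, 8.11 to 8.37 in P2 and 7.56 to 7.75 in P3. Its genes differ in level, with mean log2 intensities of 6.09 for Adipoq and 5.59 for Cidec, but 9.74 for Fabp4, 11.74 for Cd36 and 12.59 for Car3. Whether these genes are read from fat cells alone in whole muscle was not tested. Among the P2 rats, 7 of the 12 transferases were highest in P2 1, as were 24 of all 47 genes. These counts were not compared with the share of all probe sets highest in P2 1, or with the adipocyte markers by rat. The part of fat in the P2 levels of the transferases was not tested. In RNA from whole muscle, fewer cells of a type and less RNA per cell cannot be told apart.

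Fmo2, a flavin-containing monooxygenase that oxidizes sulfur and nitrogen compounds with NADPH, had the largest rise of the 47 genes against Fed in both phases. Its values were 7.93, 7.39 and 7.62 in fed rats, 10.02, 10.96 and 10.35 in P2 rats and 11.24, 10.79 and 11.05 in P3 rats. The fed rats stood far below the fasted ones, and P2 and P3 overlapped. Fmo2 rose by 2.79 ± 0.24, adjusted p = 0.000297, in P2 and 3.38 ± 0.24, adjusted p = 9.61e-06, in P3, a 10.4-fold level, and differed by 0.58 ± 0.24, adjusted p = 0.157, in P3 versus P2. That last difference was called without P2 2 (adjusted p = 0.0211).

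Of the 15 genes that remove superoxide and peroxide, 2 were higher and 3 lower in P2 (5.13% and 4.15% of all probe sets), and 2 were higher and 8 lower in P3 (15.8% and 13.4% of all probe sets). The 3 superoxide dismutases differed. Sod1, the cytosolic enzyme, had 10.070, 10.135 and 9.996 in fed rats, 10.467, 10.463 and 10.247 in P2 rats and 10.250, 10.134 and 10.364 in P3 rats. Its P2 rats lay above its fed rats, but the log2 fold change missed the threshold, at 0.33 ± 0.09, adjusted p = 0.0591. Without P2 3 it passed (adjusted p = 0.0462), as it did when probe sets under a mean log2 of 5 were left out (adjusted p = 0.0492). In P3 versus Fed it was 0.18 ± 0.09, adjusted p = 0.178. Sod2, the enzyme of the mitochondrial matrix, had 11.62, 11.69 and 11.60 in fed rats, 11.16, 11.12 and 11.16 in P2 rats and 10.68, 10.78 and 10.88 in P3 rats, with no overlap of any groups. Sod2 fell by 0.49 ± 0.07 in P2 (adjusted p = 0.00358) and further, by 0.85 ± 0.07 against Fed, in P3 (adjusted p = 2.40e-05), and P3 lay below P2 (-0.36 ± 0.07, adjusted p = 0.00732). Sod3, the secreted enzyme that binds the extracellular matrix, had 7.65, 7.92 and 8.01 in fed rats, 7.88, 7.83 and 7.67 in P2 rats and 6.01, 6.08 and 5.95 in P3 rats. P2 and fed rats overlapped and P3 rats stood apart. Its log2 fold change was -0.07 ± 0.10, adjusted p = 0.771, in P2 versus Fed, -1.85 ± 0.10, adjusted p = 2.70e-06, in P3 versus Fed and -1.78 ± 0.10, adjusted p = 1.29e-05, in P3 versus P2.

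Of 12 markers of fibro-adipogenic cells, which make matrix between the fibres, 9 were lower in P3 than in Fed, where 13.4% of all probe sets were. Pdgfra, Dcn and Gsn had no call in P3 versus Fed. The mean level of the list was 9.66 to 9.93 in Fed, 8.68 to 9.53 in P2 and 7.65 to 8.54 in P3. In P2, 3 of the 12 were lower and 1 higher than in Fed. Col1a1, a collagen of these cells, changed by -4.18 ± 0.57 in P3 versus Fed. The part of these cells in the level of Sod3 was not tested.

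Cat, the catalase of peroxisomes, had 8.98, 9.30 and 9.45 in fed rats, 9.92, 10.10 and 10.19 in P2 rats and 9.66, 10.05 and 9.95 in P3 rats. Both fasted groups lay above all fed rats, and overlapped each other. Cat rose by 0.83 ± 0.14, adjusted p = 0.0085, in P2 and 0.65 ± 0.14, adjusted p = 0.00818, in P3. Gpx1, the cytosolic and mitochondrial glutathione peroxidase, had 9.52, 10.10 and 9.96 in fed rats, 8.98, 8.79 and 8.31 in P2 rats and 7.84, 7.46 and 7.88 in P3 rats, and the groups did not overlap. Gpx1 fell by 1.16 ± 0.21 in P2 (adjusted p = 0.00947), while in P3 it fell by 2.13 ± 0.21 (adjusted p = 6.25e-05), and P3 was lower than P2 (-0.97 ± 0.21, adjusted p = 0.0118). Gpx3, the secreted glutathione peroxidase of plasma, moved the other way. Its values were 8.78, 8.61 and 9.38 in fed rats, 10.35, 10.22 and 10.19 in P2 rats and 10.65, 11.21 and 10.95 in P3 rats. Each fasted rat exceeded each fed rat. The log2 fold change of Gpx3 was 1.33 ± 0.20, adjusted p = 0.00447, in P2 and 2.01 ± 0.20, adjusted p = 7.52e-05, in P3, and the groups of P3 and P2 did not overlap although their difference missed the threshold (0.69 ± 0.20, adjusted p = 0.05004). It passed without Fed 2, Fed 3 or P3 1 (adjusted p of 0.0142 to 0.0451).

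Gpx4, which reduces lipid peroxides in membranes, had 9.42, 9.42 and 9.40 in fed rats, 9.79, 9.37 and 9.43 in P2 rats and 9.07, 9.03 and 9.26 in P3 rats. The fed and P2 rats overlapped, and the P3 rats lay just below both. Neither phase passed the test against Fed (0.12 ± 0.12, adjusted p = 0.631, in P2 and -0.29 ± 0.12, adjusted p = 0.0931, in P3), although P3 versus Fed was called without P2 1 (adjusted p = 0.0191). Against P2, Gpx4 was lower in P3 (-0.41 ± 0.12, adjusted p = 0.0419), but that call was kept only without P2 2 or P3 3, and without each of the other rats the adjusted p was 0.0582 to 0.131. Gpx7, a peroxidase of the endoplasmic reticulum, was lower in P2 (-0.53 ± 0.11, adjusted p = 0.0191), as well as in P3 (-0.97 ± 0.11, adjusted p = 0.000174). The P2 call was lost without Fed 1, Fed 3 or P2 3 (adjusted p of 0.056 to 0.0713). The step between the phases (-0.44 ± 0.11, adjusted p = 0.0269) was lost without any 1 of P2 1, P2 2 and the 3 P3 rats (adjusted p of 0.0541 to 0.0934). Gpx8, its neighbour in that compartment, was called in no comparison.

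None of the 6 peroxiredoxins was called in P2, and 4 were lower in P3, where 13.4% of all probe sets were. Prdx2, a cytosolic peroxiredoxin, had 9.71, 9.84 and 9.87 in fed rats, 9.62, 9.22 and 9.32 in P2 rats and 8.88, 8.87 and 8.62 in P3 rats. All 3 P3 rats lay below the P2 rats, which lay below the fed rats. Its log2 fold change was -0.41 ± 0.12, adjusted p = 0.0639, in P2, -1.01 ± 0.12, adjusted p = 0.000189, in P3 versus Fed and -0.60 ± 0.12, adjusted p = 0.00781, in P3 versus P2. Without P2 1 the P2 difference was called (adjusted p = 0.0155). Prdx3, the peroxiredoxin of mitochondria, was lower in P3 than in Fed (-0.89 ± 0.08, adjusted p = 4.08e-05) and than in P2 (-0.61 ± 0.08, adjusted p = 0.000886). Prdx4, of the endoplasmic reticulum, was lower in P3 (-0.31 ± 0.08, adjusted p = 0.0227), a call lost without Fed 1, Fed 3, P3 2 or P3 3 (adjusted p of 0.0703 to 0.0792). Prdx5, found in mitochondria and peroxisomes, was lower in P3 (-0.42 ± 0.10, adjusted p = 0.0132), which was lost without Fed 2 or P3 3 (adjusted p = 0.0506 in each case). In P2 versus Fed, Prdx3 gained a call without P3 2 (adjusted p = 0.0425) and Prdx5 without P2 1 (adjusted p = 0.041). Prdx1 and Prdx6 were called in no comparison.

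Red blood cells hold much Prdx2 and Gpx1, and 2 of their 6 measured markers, Hbb and Alas2, were lower in both phases. All of these markers but Hbb had mean log2 intensities of 2.99 to 4.97, below every array median. A fall is hard to see at such levels, although Alas2, which is among them, was called. Hbb changed by -2.07 ± 0.16 in P2 and by -2.14 ± 0.16 in P3, and by -0.06 ± 0.16 between P3 and P2, which was no call. The mean of the list was 5.15 to 5.17 in Fed, 4.58 to 4.68 in P2 and 4.62 to 4.68 in P3. The part of blood in these levels was not tested.

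Of the 11 genes of the thioredoxin, glutaredoxin and repair group, 2 were higher and 3 lower in P2, and 5 were higher and 4 lower in P3. In either direction 9.28% of all probe sets were called in P2 and 29.2% in P3. Txnrd1, the cytosolic thioredoxin reductase, had 7.45, 7.73 and 7.53 in fed rats, 7.90, 8.31 and 8.30 in P2 rats and 9.30, 9.35 and 9.14 in P3 rats. The groups did not overlap, and the P3 rats stood well above the P2 rats. Its log2 fold change was 0.60 ± 0.13, adjusted p = 0.02, in P2, 1.69 ± 0.13, adjusted p = 1.33e-05, in P3 versus Fed and 1.09 ± 0.13, adjusted p = 0.000447, in P3 versus P2. The P2 call was lost without Fed 1, Fed 3, P2 2 or P2 3 (adjusted p of 0.0648 to 0.0768). Txn1, cytosolic thioredoxin, was higher in P3 than in Fed (0.79 ± 0.12, adjusted p = 0.000939) and than in P2 (0.59 ± 0.12, adjusted p = 0.0091). Srxn1, which repairs overoxidized peroxiredoxins, was higher in P3 (0.79 ± 0.15, adjusted p = 0.0037), a call that was lost by the methods' analysis of variance after Benjamini-Hochberg adjustment.

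Txn2, mitochondrial thioredoxin, was lower in P3 than in Fed (-0.66 ± 0.08, adjusted p = 0.000298) and than in P2 (-0.40 ± 0.08, adjusted p = 0.01). Txnrd2, its reductase, was lower in P3 than in Fed (-0.72 ± 0.07, adjusted p = 8.45e-05) and than in P2 (-0.55 ± 0.07, adjusted p = 0.000904). Glrx5, a mitochondrial glutaredoxin of iron-sulfur cluster assembly, was lower in P2 (-0.46 ± 0.10, adjusted p = 0.0273), as well as in P3 (-0.85 ± 0.10, adjusted p = 0.000266). Its P2 call was lost without any 1 fed rat, P2 2 or P2 3 (adjusted p of 0.0721 to 0.0989). Between the phases Glrx5 changed by -0.39 ± 0.10, adjusted p = 0.0333, a call lost without any 1 fed rat, P2 1, P3 1 or P3 3 (adjusted p of 0.0505 to 0.117). Glrx2, another mitochondrial glutaredoxin, was called in no comparison, and neither was Txnip, the inhibitor of thioredoxin. Txnip was higher in P2 than in Fed without P3 2 (adjusted p = 0.0241), and Txn2 was lower in P2 than in Fed without P2 1 (adjusted p = 0.0331).

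**Figure D2:**
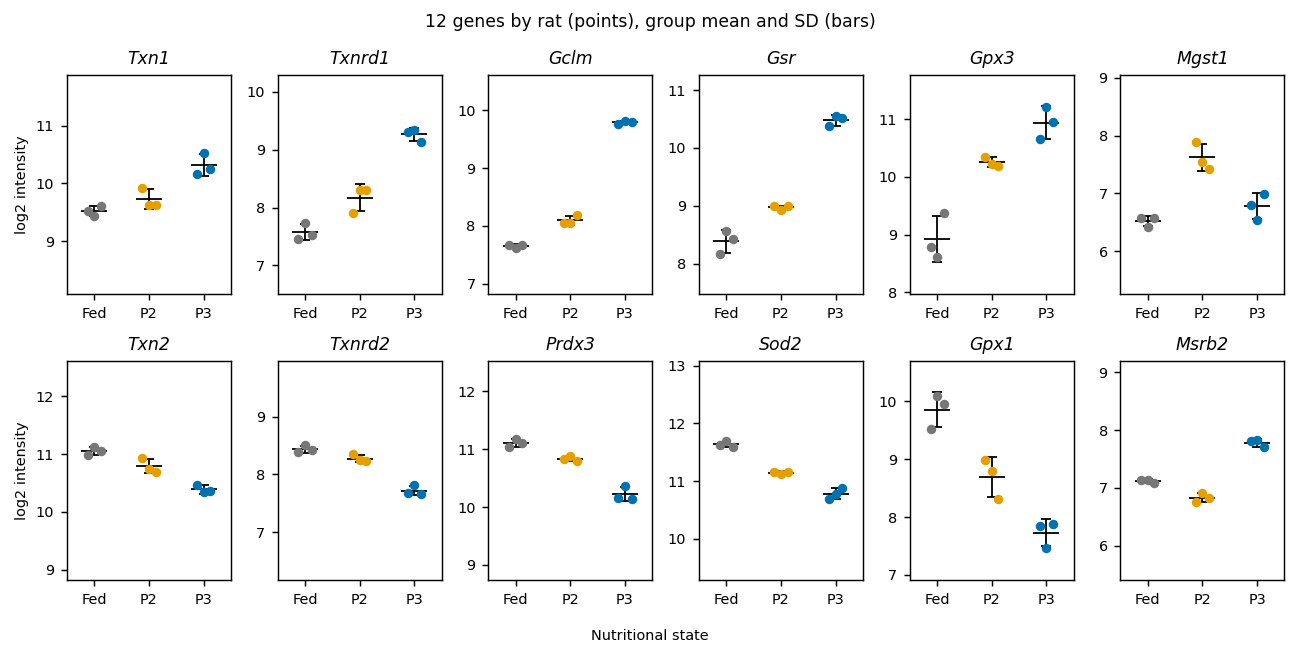
Log2 intensity (y axis, of the same height in every panel) of 12 genes in each rat (points) of the Fed, P2 and P3 groups, with the group mean and its SD (bars). The upper row holds genes that were higher in P2 or in P3 than in Fed, and the lower row genes that were lower in P3, with Msrb2 at its end, lower in P2 and higher in P3.

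Glrx, the cytosolic glutaredoxin, fell early. Its values were 8.47, 8.98 and 9.22 in fed rats, 7.49, 6.81 and 6.94 in P2 rats and 6.65, 7.06 and 6.69 in P3 rats. Fasted rats of both phases overlapped and lay far below the fed rats. Glrx fell by 1.81 ± 0.23 in P2 (adjusted p = 0.00179), while in P3 it fell by 2.09 ± 0.23 (adjusted p = 0.000126), with -0.28 ± 0.23, adjusted p = 0.539, between P3 and P2. Msrb2, a mitochondrial methionine sulfoxide reductase that repairs oxidized proteins, was the single gene with opposite calls. It was lower in P2 than in Fed (-0.29 ± 0.07, adjusted p = 0.0345) and higher in P3 than in Fed (0.66 ± 0.07, adjusted p = 0.000112), and P3 exceeded P2 by 0.95 ± 0.07, adjusted p = 4.39e-05. The fall in P2 lost its call without any 1 fed rat, P2 1, P2 3 or P3 1 (adjusted p of 0.0503 to 0.106), and the other calls of Msrb2 were kept.

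By their calls against Fed, 15 genes were higher in both phases and 13 were called in neither. Another 5 were lower in both (Sod2, Gpx1, Gpx7, Glrx and Glrx5). The groups were different rats. Such patterns were not counted over all probe sets, of which 9.28% were called in P2 and 29.2% in P3. Of the 15, 10 were higher in P3 than in P2 too: Nfe2l2, Keap1, Txnrd1, Nqo1, Gclc, Gclm, Gsr, Cth, Gstt2 and Mgst2. The other 5 (Cat, Gpx3, Gstm1, Gstm2 and Fmo2) had no call between the phases. In P3 alone, 8 were lower and 2 higher, and in P2 alone 3 were higher and none lower. A call in 1 phase and not in the other does not show a difference, but P3 versus P2 was itself called for 5 of the 8 (Sod3, Prdx2, Prdx3, Txn2 and Txnrd2), for 1 of the 2 (Txn1) and, downwards, for Gstm7 and Mgst1 of the 3. The 12 genes called in no comparison had log2 fold changes of -0.14 to 0.50 in P2 versus Fed, -0.26 to 0.24 in P3 versus Fed and -0.37 to 0.10 in P3 versus P2. They are Sod1, Gpx8, Prdx1, Prdx6, Txnip, Glrx2, Gss, Ggt7, Gstp1, Gstk1, Gsto1 and Gstt1.

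**Figure D3:**
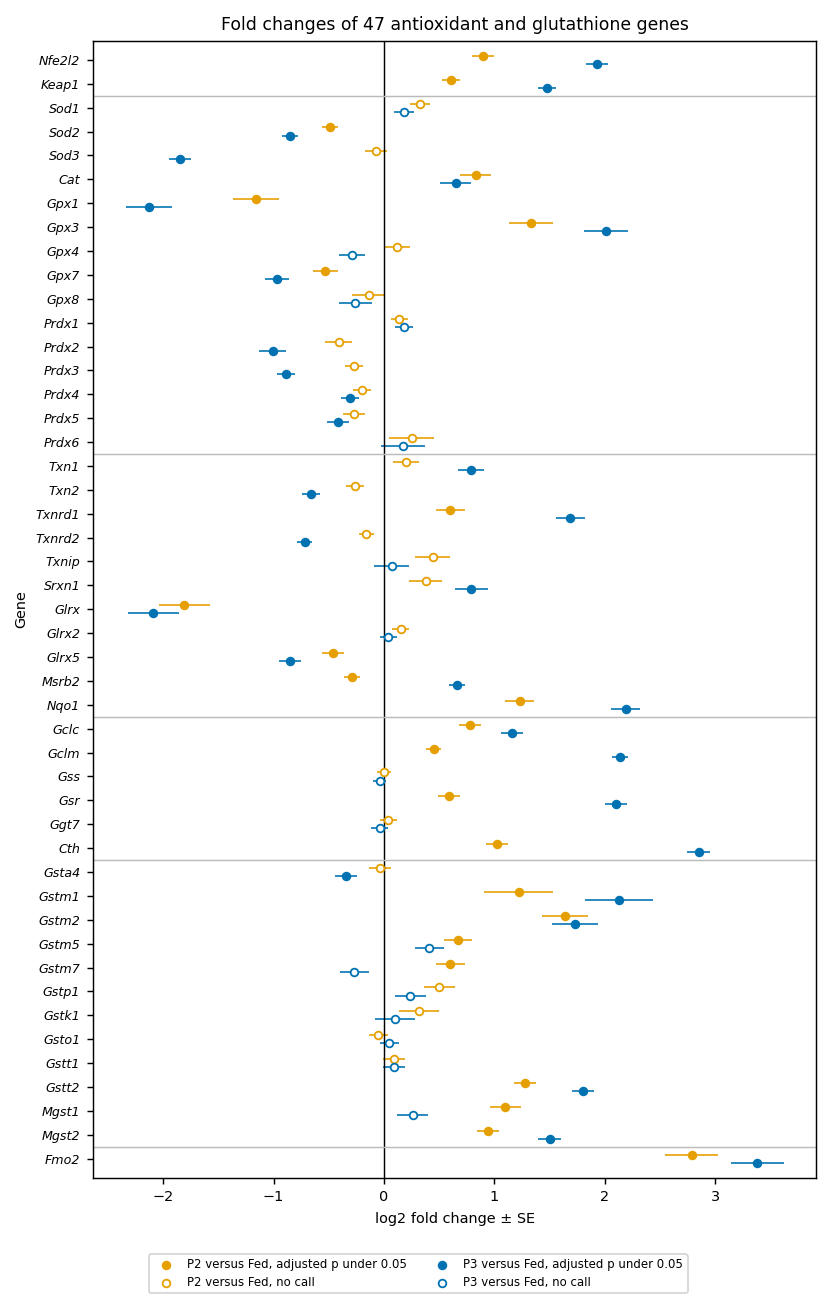
Log2 fold change (x axis, points, with SE as bars) of the 47 genes in P2 versus Fed (orange) and P3 versus Fed (blue), grouped by role. Filled points have an adjusted p under 0.05, 18 higher and 6 lower in P2, and 18 higher and 13 lower in P3.

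Genes that act with or against NRF2 or are among its targets, but were outside the 48, formed a list of 30. Of these, 28 were measured. In P2, 9 were higher and 1 lower than in Fed, in P3, 15 were higher and 4 lower, and between P3 and P2, 10 were higher and 1 lower, with medians of 0.15, 0.54 and 0.28. Of all probe sets, 5.13% were higher in P2, 15.8% in P3 and 8.50% in P3 versus P2. In P2 the largest rises were those of Pir, an iron-binding nuclear protein (1.41 ± 0.09), Bach1, the repressor that competes for the same element (1.36 ± 0.09), Ephx1, the microsomal epoxide hydrolase (1.06 ± 0.10), and Sqstm1, which binds KEAP1 and brings it to autophagy (0.96 ± 0.08). In P3 they were Hmox1, heme oxygenase 1 (3.09 ± 0.17), Pir (2.89 ± 0.09), Bach1 (2.48 ± 0.09) and Mafk, a small MAF protein that pairs with NRF2 or BACH1 (2.21 ± 0.11). Hmox1 was not called in P2 (0.32 ± 0.17, adjusted p = 0.335) and was higher in P3 than in P2 by 2.77 ± 0.17. Lower in P3 were Maf (-0.97 ± 0.12), Blvra, a biliverdin reductase (-0.93 ± 0.16), Abcc4, a transporter (-0.52 ± 0.13), and Taldo1, an enzyme of the pentose phosphate pathway (-0.43 ± 0.10). Slc7a11, the cystine carrier, was called in no comparison, but its mean log2 intensity of 3.52 lay far below every array median.

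**Figure D4:**
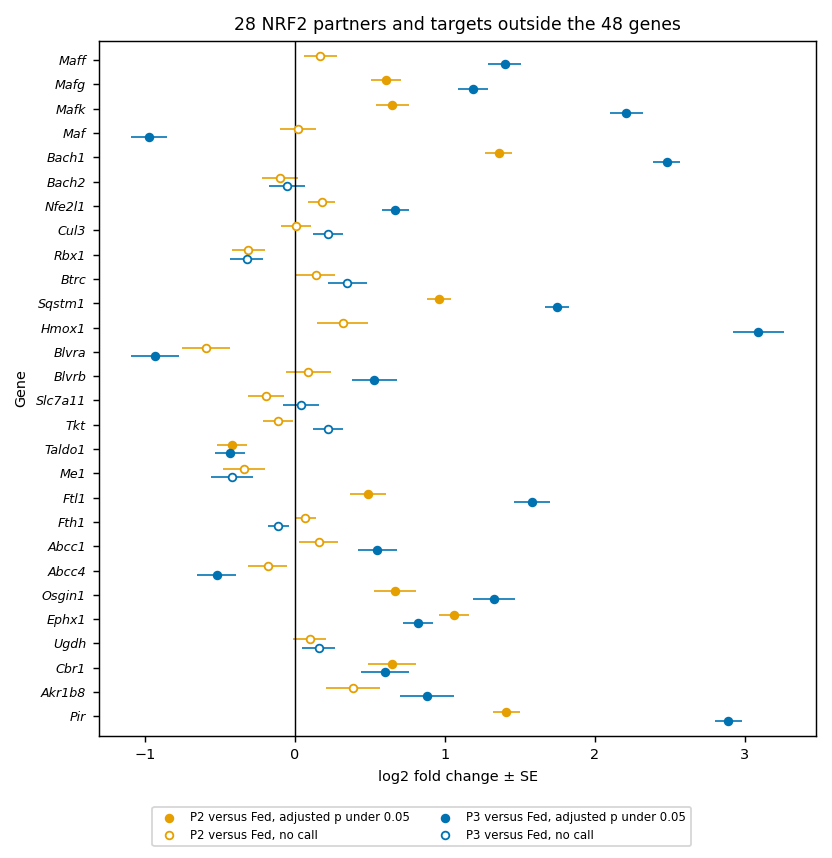
Log2 fold change (x axis, points, with SE as bars) of 28 genes that act with or against NRF2 or are among its targets. Orange is P2 versus Fed and blue P3 versus Fed, filled where the adjusted p was under 0.05. Hmox1 lies at 0.32 in P2 and at 3.09 in P3, whereas Bach1 and Pir were higher in both.

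Another list held 46 further redox genes, of which 41 were measured. Here falls outnumbered rises in P3, with 5 higher and 15 lower, and in P2, 4 were higher and 4 lower. Between P3 and P2, 4 were higher and 11 lower. Sesn1 and Sesn3, sestrins of the stress response, moved apart, with 2.79 ± 0.14 for Sesn1 and -2.22 ± 0.15 for Sesn3 in P3 versus Fed. Gsta1, an alpha class transferase (2.29 ± 0.18), Selenos, a selenoprotein of the endoplasmic reticulum (1.34 ± 0.07), and Txnl1, a thioredoxin-like protein (1.27 ± 0.07), were higher too. Pon3, a lactonase (-1.86 ± 0.15), Oplah, which returns oxoproline to glutamate (-1.32 ± 0.09), and Glo1, which uses glutathione to clear methylglyoxal (-1.05 ± 0.12), were lower. Both lists were compiled with earlier results of these data known, and the counts of the further redox genes stand beside 9.28% of probe sets called in P2, 29.2% in P3 and 16.0% in P3 versus P2.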

How the data were processed

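Per the labels and the study's methods, total RNA of TIB was hybridized to Affymetrix Rat Gene 1.0 ST arrays. The authors summarized the probes with RMA (sketch quantile normalization, median polish) in Affymetrix Expression Console 1.1, and the deposited values are log2 intensities per probe set and array. Genome builds are not used for these values. The table holds 29215 probe sets, of which 15310 carry 1 symbol, 323 several and 13582 none, and no column of it was left out. RefSeq promoter windows are those of build GRCr8.

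The members and lists were chosen with earlier results of these data known. A model of the 3 groups was fitted with limma 3.58.1 (lmFit and eBayes, 2.87 prior degrees of freedom) in R 4.3.3, and contrasts were taken of each phase against Fed and of P3 against P2. The p-values were adjusted by Benjamini-Hochberg over all probe sets of a comparison. The test was tried on simulated data with 200 changed probe sets. Tables and figures used Python 3.11.15, pandas 2.3.3 and matplotlib 3.10.9.

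Values of each rat are given for genes called against Fed with a log2 fold change of at least 1 in size in a called comparison, and for Sod1, Sod2, Cat, Gpx4, Nfe2l2 and Keap1, while other members have their value and call. For the lists of other genes at most 4 were named per comparison and direction, by the size of a called change. Genes named beside marker lists, those in the plot of single rats, Slc7a11, Gstm3, Gstm4 and the Hmox1 value in P2 were chosen after their values were seen. Alternatives were another round of quantile normalization, centring on array medians, a filter at a mean log2 of 5, an intensity trend with robust moderation, only the groups compared, the replicate number as a block, an adjusted p under 0.01, the Tukey test of the methods in both forms, the average over a gene's probe sets, and each array left out. The precision is limited by 3 arrays per group. The p-values measure the spread between these rats.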

Additional observations from a re-analysis of the deposited data

Results flagged for a closer look

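For 3 genes the change in P3 versus P2 ran against their call in P2 versus Fed, and this difference between the phases was itself called by limma. Msrb2 was lower in P2 than in Fed and then higher in P3 than in P2 by 0.95 ± 0.07 (adjusted p = 4.39e-05). Gstm7 was higher in P2 than in Fed and P3 differed from P2 by -0.87 ± 0.13 on the log2 scale (adjusted p = 0.00192). Mgst1 had the same course, P3 differing from P2 by -0.84 ± 0.14 (adjusted p = 0.00349). These differences share the P2 rats with the calls they run against. The P2 versus Fed call of Msrb2 was lost without any 1 fed rat, P2 1, P2 3 or P3 1. That of Gstm7 was lost without P2 1 or P2 2, and that of Mgst1 was kept whichever rat was left out. Of the 11 adipocyte markers, Adipoq, Cidec and Fabp4 were also higher in P2 than in Fed and lower in P3 than in P2, whereas Cd36 was higher in P3 than in P2, and their part was not tested.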

How the results depend on the processing

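No value of the 47 genes changed direction in a call under any alternative. Of 79 called values, 65 kept the call whichever array was left out, 14 lost it without some array, and 13 uncalled values gained one. Fitting only the groups compared lost 10 of the 79, the replicate block 7 and the methods' test with Benjamini-Hochberg adjustment 6. The calls lost were 36 by the methods' test at 0.001, 16 at an adjusted p under 0.01, and with the other scalings, the filter, the moderation or the probe set average at most 2 each. With 1 array left out, 15 to 18 genes were higher and 3 to 8 lower in P2 versus Fed (3 without Fed 1, Fed 3 or P2 3), 18 to 19 higher and 10 to 14 lower in P3 versus Fed, and 11 to 13 higher and 9 to 11 lower in P3 versus P2.

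The methods' test at 0.001 left 9 genes higher and 1 lower in P2 versus Fed, 13 higher and 10 lower in P3 versus Fed, and 7 higher and 3 lower in P3 versus P2. An adjusted p under 0.01 left 3 lower in P2 versus Fed and 7 lower in P3 versus P2, and a fit of only the groups compared left 3 lower in P2 versus Fed. For the genes of the other lists together the same alternatives were added after the data were seen. Of their 13 higher and 5 lower in P2 versus Fed, 8 and 2 were left by the methods' test at 0.001, which also left 8 of 19 lower in P3 versus Fed and 2 of 12 lower in P3 versus P2. In P2 versus Fed 3 were lower at an adjusted p under 0.01, and 8 with quantile normalization once more or with the methods' test after Benjamini-Hochberg adjustment.

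Equal replicate numbers in the labels did not pair the rats: deviations of same-numbered rats from their group means correlated at -0.243 to 0.123 over 9 pairs, and those of other numbers at -0.161 to 0.305 over 18. With the replicate number as a block, 17 genes were higher and 4 lower in P2 and 18 and 13 in P3 (each against Fed), and 11 and 9 in P3 versus P2.

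The number of arrays limits the precision, and arrays give no comparison of level between genes. Gsta4, Ggt7 and Gstt1 had mean log2 intensities of 5.34, 5.04 and 5.46, below the lowest array median of 5.80.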
